A study of Mus musculus with 8 samples.

Results

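The genes described here are 10 genes whose products are stored in the specific and gelatinase granules of neutrophils or mark that stage: Ltf, Camp, Ngp, Lcn2, Chil3, Mmp8, Mmp9, Cd177, Hp and Olfm4. They were chosen by name from knowledge of granule contents, but with earlier results of these data known. The shares of members called below are therefore not independent of that choice. Each of the 10 is among the 41214 genes of the count table. RNA-seq was done on total bone marrow of 8 C57Bl6 mice, 2 in each of 4 groups. Young KD mice were 39 and 42 days old, young KO mice 48 and 44 days, old KO mice 158 and 101 days, and sick KD mice 187 and 78 days. KD mice carry a human GFI1 cDNA knocked into the mouse Gfi1 locus, with a floxed neo cassette in antisense orientation that keeps its expression low, and KO mice lack Gfi1. Sick KD mice are labelled AML and the other 3 groups no AML, whereas the study describes the disease of these mice as a myeloproliferative neoplasm. All 8 mice therefore carry an altered Gfi1 locus, and normal marrow was not analysed here. Within a group the mice differ in age, by as much as 187 against 78 days in sick KD, and in the old or sick mice disease goes only with the KD genotype, so genotype and disease cannot be told apart there.

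Neutrophils fill their granules in an order. Azurophil granules with myeloperoxidase and elastase are made at the promyelocyte stage, specific granules at the myelocyte and metamyelocyte stages, and gelatinase granules last. Gfi1 is a transcriptional repressor that neutrophil precursors need to pass beyond the promyelocyte stage, and C/EBPε is the activator best known for the specific granule genes. Several of the genes are also transcribed elsewhere: Lcn2 and Hp are acute-phase genes of the liver, and Chil3 is made by monocytes and macrophages too. In a bulk library, fewer cells of a type and less RNA per cell cannot be told apart.

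The promoters of 8 of the 10 genes were in the RefSeq sequence table for GRCm38.p6; those of Mmp9 and Hp were not. The sequences of 6 are printed because they belong to the genes in which the groups differed most and to the 3 antimicrobial genes that behaved otherwise. Capitals mark matches to the letters TTNNGNAA, a short form of the C/EBP site, and to AATCAC, the core of the GFI1 site, on either strand. Each sequence runs 5′ to 3′ on the gene's own strand and stops before the RefSeq start and every start in GENCODE's basic set. The regions are chr2:32387798-32387989 (minus strand) for Lcn2, chr3:106167565-106167814 (minus) for Chil3, chr9:7558179-7558428 (plus) for Mmp8, chr9:111019042-111019270 (plus) for Ltf, chr9:110419558-110419746 (plus) for Ngp and chr9:109849618-109849706 (minus) for Camp. A longer Lcn2 transcript of GENCODE's full set starts further upstream and has an exon over part of the Lcn2 region.
Lcn2: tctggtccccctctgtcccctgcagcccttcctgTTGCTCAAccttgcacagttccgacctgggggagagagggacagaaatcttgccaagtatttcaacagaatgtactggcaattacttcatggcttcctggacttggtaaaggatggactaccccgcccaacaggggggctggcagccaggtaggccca
Chil3: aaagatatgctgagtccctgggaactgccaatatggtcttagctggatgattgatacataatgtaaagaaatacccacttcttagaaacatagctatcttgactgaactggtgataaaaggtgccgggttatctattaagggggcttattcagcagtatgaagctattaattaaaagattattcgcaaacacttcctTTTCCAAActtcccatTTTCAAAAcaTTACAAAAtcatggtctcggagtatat
Mmp8: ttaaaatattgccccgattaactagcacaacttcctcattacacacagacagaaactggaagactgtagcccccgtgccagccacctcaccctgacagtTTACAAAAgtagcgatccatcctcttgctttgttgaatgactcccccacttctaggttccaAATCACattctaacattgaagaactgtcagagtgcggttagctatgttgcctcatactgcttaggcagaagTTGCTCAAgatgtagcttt
Ltf: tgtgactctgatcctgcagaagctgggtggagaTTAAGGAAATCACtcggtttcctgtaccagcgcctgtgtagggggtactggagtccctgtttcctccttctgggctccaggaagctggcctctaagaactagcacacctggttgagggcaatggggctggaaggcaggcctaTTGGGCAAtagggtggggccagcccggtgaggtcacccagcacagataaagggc
Ngp: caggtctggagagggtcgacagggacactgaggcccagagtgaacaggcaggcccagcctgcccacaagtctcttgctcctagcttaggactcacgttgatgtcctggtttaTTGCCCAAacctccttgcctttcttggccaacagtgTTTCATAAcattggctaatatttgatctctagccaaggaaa
Camp: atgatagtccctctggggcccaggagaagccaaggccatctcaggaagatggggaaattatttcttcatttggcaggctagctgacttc

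In the 250 bases before the RefSeq start, 7 of the 8 promoters held at least 1 C/EBP match, against 36.8% of all 32851 promoters of the table, and Camp held none. The GFI1 letters stood in 2 of the 8, Ltf and Mmp8, against 9.14% of all promoters. In Ltf the GFI1 letters overlapped a C/EBP match (TTAAGGAAATCAC). These are matches of letters, and no binding was measured. Ltf, Ngp and Camp lie on the same chromosome, at chr9:111019271-111042767, chr9:110419747-110423012 and chr9:109847379-109849617 in GENCODE M21. Mmp8 lies far from them at chr9:7558456-7568485. Lcn2 is at chr2:32384633-32388252, Mmp9 at chr2:164940780-164955850, Chil3 at chr3:106147554-106167564, Cd177 at chr7:24743983-24760311, Hp at chr8:109575128-109579172 and Olfm4 at chr14:79984081-80023139. Reads were counted over the exons of each gene.

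The libraries held 26642067 to 42679114 counts on genes, and levels are given as CPM (counts relative to the library total) after TMM scaling across all 8 libraries. Of the reads aligned to a single place, 42.0% and 38.8% matched no counted exon in sick KD. In the other 6 libraries the share was 26.9% to 33.8%. This tally does not separate reads within introns from reads between genes. Alignments to several places, which enter no gene's count, made up 49.3% and 53.2% of the alignments tallied in sick KD. In the others they made up 42.2% to 44.7%. A read with several places may be tallied more than once, so these are not shares of reads. Since the sick KD libraries are that whole group, the comparisons cannot be made without them. Counts of 2 mice of a group differed by far more than sampling noise (chi-square per degree of freedom 21.8 to 35.9). Gfi1 itself was at 5.43 and 7.08 CPM in sick KD, 6.20 and 7.01 in young KD, 13.2 and 29.9 in old KO and 14.2 and 14.4 in young KO. A count over the whole mouse gene does not separate the deleted or replaced part of the locus and so does not check the genotype labels; groups are named as labelled. Nothing in the labels states how the mice of a group are related. The p-values rest on the spread between these mice, which edgeR estimates with information shared across genes, and cover no variation beyond these mice.

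Together the 10 genes took 0.860% and 0.621% of the counts in sick KD, 0.260% and 0.325% in old KO, 0.341% and 0.310% in young KO and 0.412% and 0.364% in young KD. Their summed level was 9152 and 6596 CPM in sick KD against 2510 and 3285 CPM in old KO, so both sick KD libraries lay above the other 6, which reached 4024 CPM at most. Chil3, Hp and Mmp8 made up 89.3% to 93.1% of this sum in every library. The sum thus says little of Ltf, Camp, Ngp, Mmp9 and Olfm4, which together held 0.321% to 1.52% of it.

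Per kilobase of exon, Chil3 was the highest of the 10 genes in each group, with mean levels of 3154 CPM per kb in sick KD, 1342 in young KD, 899 in young KO and 736 in old KO. Hp came next (566 to 827 CPM per kb), then Mmp8 (158 to 304). Cd177 and Lcn2 followed, and only their order depended on the group: in sick KD Lcn2 had the higher mean, 118 against 108 CPM per kb, a difference within the spread of the 2 mice, and in old KO Cd177 was far above Lcn2, 78.3 against 13.4. Ngp, Camp, Ltf, Mmp9 and Olfm4 followed in this order in every group, from 16.1 for Ngp in sick KD to 0.120 for Olfm4 in young KO. Neighbours in this order whose mice overlapped were Camp and Ltf in every group but young KO, Ngp and Camp in both KD groups, Mmp9 and Olfm4 in sick KD, and Chil3 and Hp, Lcn2 and Ngp, and Ltf and Mmp9 in old KO.

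**Figure D1:**
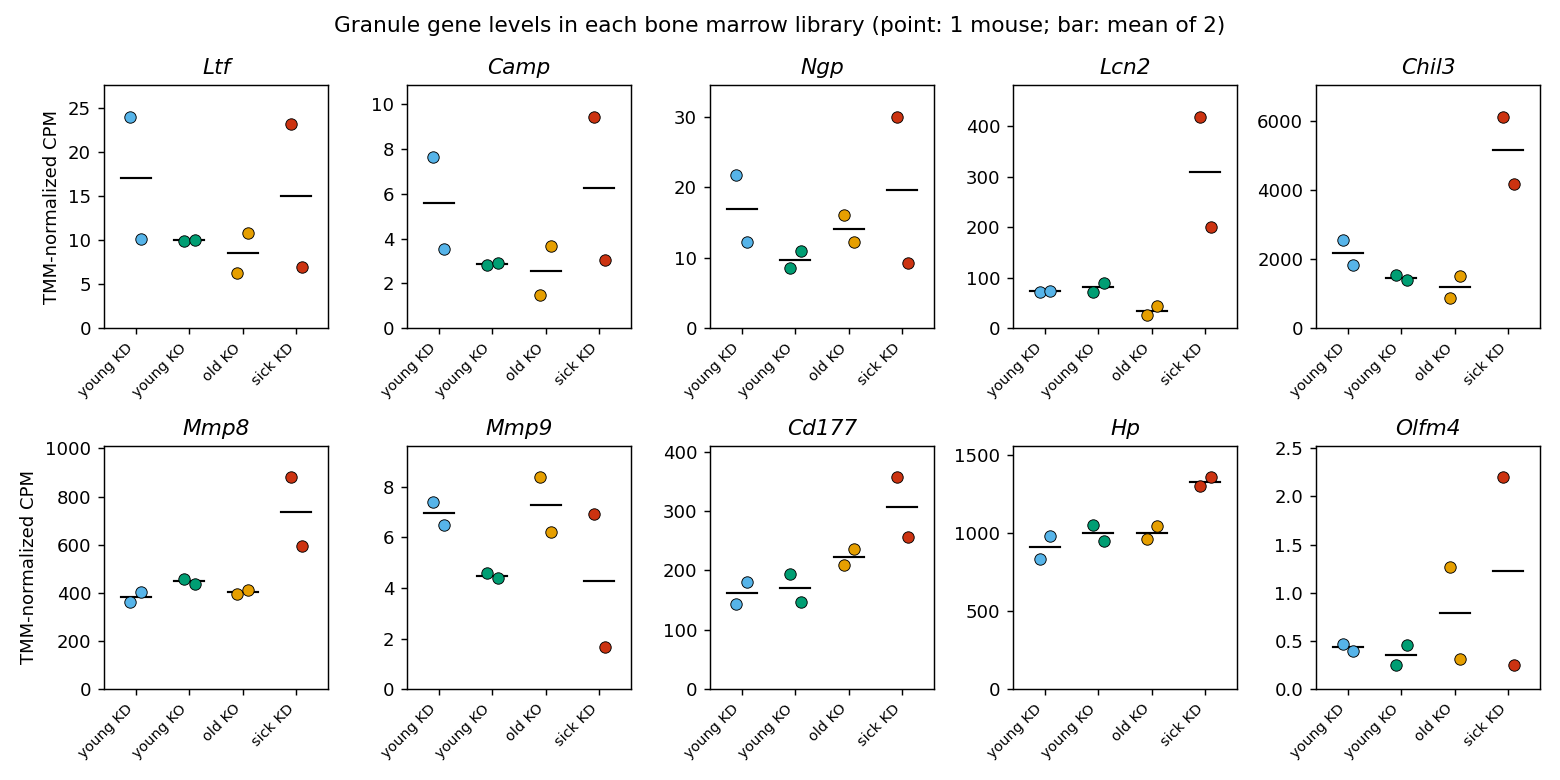
TMM-normalized CPM of each granule gene (vertical axis, linear, starting at 0, its own scale for each gene) in the 4 groups; each point is 1 mouse and each bar the mean of 2. Lcn2, Chil3, Mmp8, Cd177 and Hp are highest in both sick KD mice, whereas for Ltf, Camp and Ngp 1 sick KD mouse and 1 young KD mouse stand above the rest.

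Old KO was compared with sick KD, the contrast the study drew between diseased KD mice and KO mice without disease. Lcn2, Chil3 and Mmp8 were lower in old KO, and no member was higher past the threshold (edgeR quasi-likelihood test, adjusted p under 0.05). Of all 14470 genes tested, 8.22% were lower in old KO and 9.93% higher. Each of the 10 passed the filter on low counts. Mmp9 alone had a positive log2 fold change, and the median of the 10 was -0.75 against -0.005 over all genes tested.

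Lcn2, which starves bacteria of iron by binding their siderophores, was at 418 and 200.5 CPM in sick KD and at 26.6 and 43.7 CPM in old KO. The groups did not overlap, and the lowest sick KD mouse was far above the highest old KO mouse. Old KO was 8.88-fold lower (log2 fold change -3.15, SE 0.39, edgeR adjusted p = 0.00546). Leaving out each of the 4 mice in turn gave log2 fold changes from -3.59 to -2.52, each past the threshold.

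Chil3, a chitinase-like lectin also called Ym1, was at 6126 and 4170 CPM in sick KD and at 888 and 1516 CPM in old KO. Again the groups were far apart, at 4.33-fold lower in old KO (log2 fold change -2.12, SE 0.30, edgeR adjusted p = 0.00776), and the call held without each mouse. Chil3 shares 29.4% of the 50-base stretches of its transcript with Chil4, so reads of the pair could be split or dropped in counting. Chil4 had 2 to 14 counts per library, and the share of alignments to several places was highest in sick KD; its part in the Chil3 values was not tested.

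Mmp8, the neutrophil collagenase, was at 879 and 593 CPM in sick KD and at 394 and 411 CPM in old KO. The groups did not overlap, and the difference was smaller, 1.85-fold (log2 fold change -0.89, SE 0.20, edgeR adjusted p = 0.0289). This call was lost without sick KD mouse 1 (adjusted p = 0.0640, log2 fold change -0.57) and without old KO mouse 1 (0.0630 and -0.85).

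Cd177, a surface glycoprotein that neutrophils keep in specific granules and that binds Pecam1, was at 356 and 255 CPM in sick KD and 209 and 236 CPM in old KO. Hp, haptoglobin, which binds free haemoglobin, was at 1300.0 and 1356 CPM in sick KD and 959 and 1045 CPM in old KO. Neither gene's groups overlapped, but the differences did not pass the threshold in edgeR (Cd177 log2 fold change -0.48, SE 0.18, adjusted p = 0.115; Hp -0.42, SE 0.14, adjusted p = 0.0831). Both passed in DESeq2 (adjusted p = 0.0491 and 0.00470), and Cd177 passed in edgeR without sick KD mouse 2 (adjusted p = 0.0228).

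The other 5 genes overlapped between the groups. Ltf, lactotransferrin, binds iron, and was at 23.1 and 6.91 CPM in sick KD and 6.22 and 10.8 CPM in old KO. Camp, the precursor of the cathelicidin peptide, was at 9.42 and 3.07 CPM in sick KD and 1.48 and 3.68 CPM in old KO. Ngp, neutrophilic granule protein, was at 30.0 and 9.30 CPM in sick KD and 16.1 and 12.2 CPM in old KO. In each of these 3 genes sick KD mouse 1 was the highest of the 4 and sick KD mouse 2 lay near or among the KO mice. Their log2 fold changes were -0.83 (SE 0.53, edgeR adjusted p = 0.305), -1.28 (0.59, 0.173) and -0.49 (0.48, 0.506). Without sick KD mouse 1 the values became 0.29, -0.25 and 0.59 respectively, none past the threshold, and without sick KD mouse 2 they became -1.46, -1.88 and -1.10, all past it. Camp also passed without old KO mouse 2 (-2.09, adjusted p = 0.0192).

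Mmp9, gelatinase B, the enzyme that names the gelatinase granule, was at 6.91 and 1.66 CPM in sick KD and 8.36 and 6.20 CPM in old KO. It was the one member with a positive log2 fold change, 0.76 (SE 0.57, edgeR adjusted p = 0.385), and its value rested on which sick KD mouse was present. It was 2.12 without sick KD mouse 1 (adjusted p = 0.0229) and 0.06 without sick KD mouse 2 (adjusted p = 0.910). Olfm4, olfactomedin 4, which marks a subset of neutrophils, was at 2.20 and 0.25 CPM in sick KD and 1.26 and 0.31 CPM in old KO. Olfm4 had only 7 to 55 counts per library over the 8 libraries, and with the spread between mice its difference did not pass the threshold (log2 fold change -0.67, SE 0.96, edgeR adjusted p = 0.655). With 2 mice on each side the smallest two-sided p of an exact permutation test is 0.333, so every call here rests on edgeR's estimate of spread across genes. Groups that do not overlap are for that reason no support by themselves, and the share of all genes without overlap is not given here. In young KO against young KD the groups of Ltf, Camp, Ngp, Chil3, Mmp8 and Mmp9 did not overlap, and none of them passed the threshold.

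**Figure D2:**
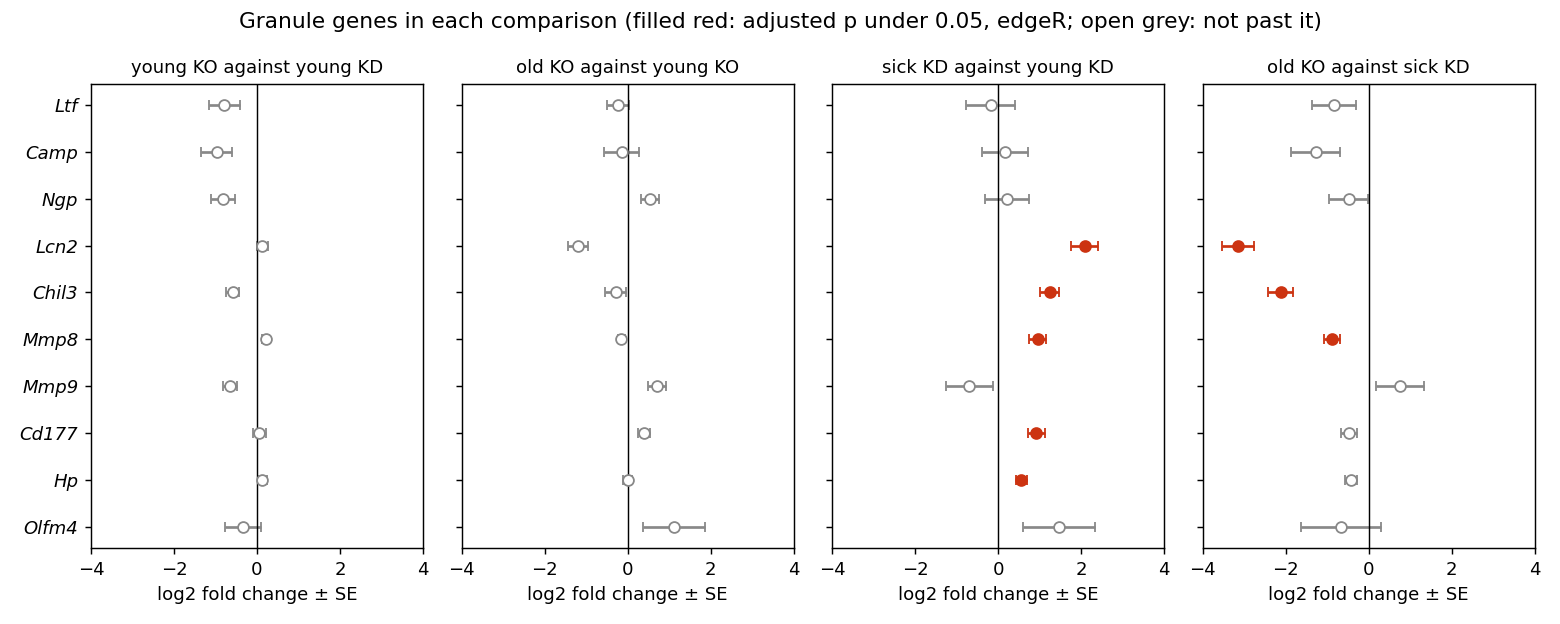
Log2 fold change of each granule gene with its SE (horizontal axis) in the 4 pairwise comparisons, 1 panel each, from edgeR; filled points passed an adjusted p of 0.05. The 3 filled points of old KO against sick KD lie left of 0, the 5 of sick KD against young KD lie right of it, and the other 2 panels hold none.

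Sick KD and young KD mice share the allele and differ in age and in disease, which cannot be told apart. In their comparison Lcn2, Chil3, Mmp8, Cd177 and Hp rose in sick KD, 5 of the 10 members, against 9.45% of all 14656 genes tested that were higher and 11.4% that were lower (edgeR adjusted p under 0.05). No member was lower past the threshold, and the median log2 fold change of the members was 0.74 against 0.013 over all genes. This comparison and the previous one use the same 2 sick KD libraries, so their values do not bear on each other independently.

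Lcn2 was at 71.9 and 74.8 CPM in young KD and was 4.24-fold higher in sick KD (log2 fold change 2.09, SE 0.32, edgeR adjusted p = 0.0116). Chil3 was at 2549 and 1831 CPM in young KD and was 2.37-fold higher in sick KD (1.24, SE 0.23, adjusted p = 0.0180). Both calls held without each mouse in turn. Mmp8 was at 363 and 405 CPM in young KD and 1.93-fold higher in sick KD (0.95, SE 0.20, adjusted p = 0.0233). Cd177 was at 144 and 181 CPM in young KD and 1.90-fold higher in sick KD (0.92, SE 0.19, adjusted p = 0.0237). Hp was at 835 and 984 CPM in young KD and 1.47-fold higher in sick KD (0.56, SE 0.13, adjusted p = 0.0307). For each of these genes both sick KD values lay above both young KD values. Without young KD mouse 1 the calls of Mmp8, Cd177 and Hp were lost (adjusted p = 0.0789, 0.0898 and 0.370), and without young KD mouse 2 that of Hp (0.0951).

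Ltf, Camp and Ngp gave log2 fold changes near 0 between the same groups: -0.18 (SE 0.59), 0.16 (SE 0.56) and 0.22 (SE 0.52). Here young KD mouse 1 was high as well. Ltf was at 24.0 CPM in that mouse and 10.1 CPM in young KD mouse 2, Camp at 7.62 and 3.52 CPM, and Ngp at 21.7 and 12.2 CPM. Within young KD the higher mouse thus exceeded the lower 2.38-fold for Ltf, 2.17-fold for Camp and 1.78-fold for Ngp, and within sick KD 3.35-fold, 3.07-fold and 3.23-fold. The corresponding ratios for Lcn2 were 1.04 in young KD and 2.09 in sick KD, and for Hp 1.18 and 1.04. In these 3 antimicrobial genes the mice of a KD group differed more than the means of the KD groups did. Mmp9 (7.40 and 6.50 CPM in young KD; log2 fold change -0.70, SE 0.57) and Olfm4 (0.47 and 0.39 CPM; 1.47, SE 0.87) did not pass the threshold either. Without sick KD mouse 1 Mmp9 was lower in sick KD (-2.06, edgeR adjusted p = 0.0145), and without sick KD mouse 2 Olfm4 was higher (2.34, adjusted p = 0.0167).

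**Figure D3:**
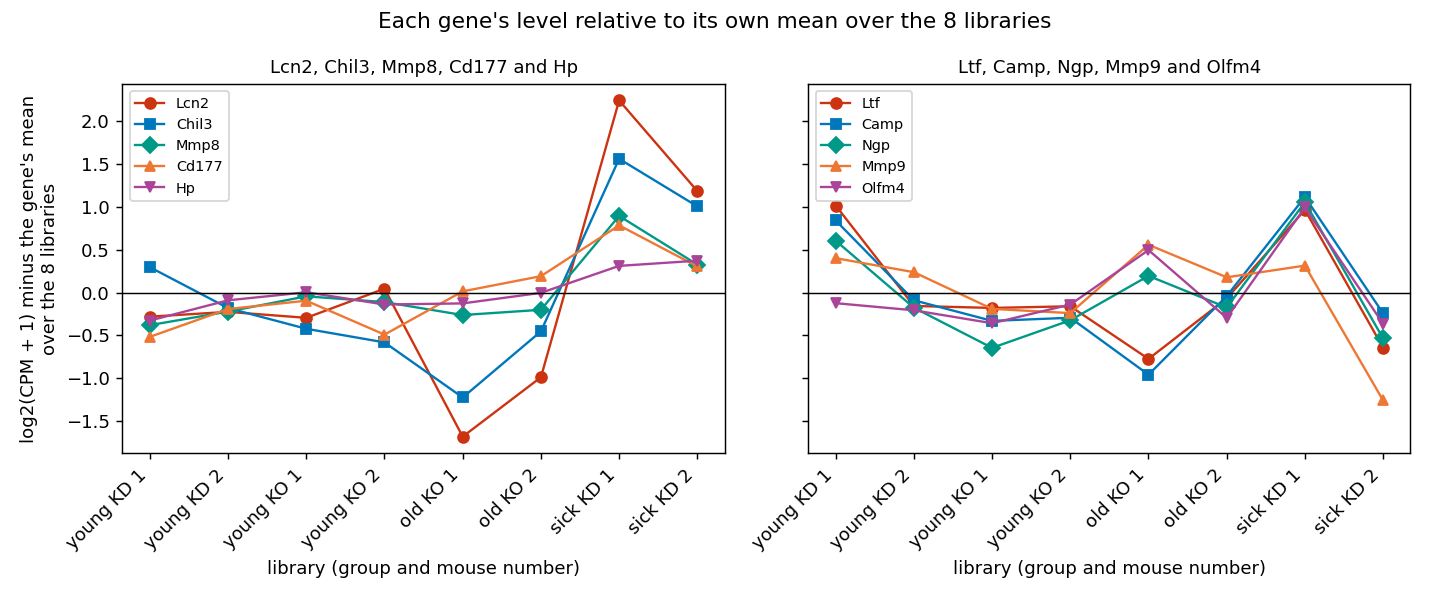
Level of each granule gene in each of the 8 libraries as log2(CPM + 1) minus the gene's own mean over the libraries (vertical axis, log2 scale; lines only join the points of a gene and imply no order). The left panel holds the genes highest in both sick KD mice; in the right panel Ltf, Camp and Ngp are high in sick KD mouse 1 and young KD mouse 1 and not in the other mouse of each group.

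In young mice, where neither genotype is diseased, 0 of the 10 members passed the threshold between KO and KD in edgeR, and 0 in DESeq2. Over all genes edgeR called 6 of 14839, 0.0404%. At an unadjusted p under 0.05, edgeR had 4 members lower in young KO (Camp, Ngp, Chil3 and Mmp9) and 1 higher (Mmp8), against 2.66% of all genes in either direction. The members' median log2 fold change was -0.46 against -0.006 over all genes.

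Chil3 was at 1548 and 1387 CPM in young KO, below both young KD mice (log2 fold change -0.59, SE 0.16). Mmp9 was at 4.57 and 4.39 CPM in young KO, also below both young KD mice (-0.64, SE 0.17). Ltf, at 9.90 and 10.05 CPM, Camp, at 2.83 and 2.92 CPM, and Ngp, at 8.55 and 10.9 CPM, were nearly equal in the 2 young KO mice and below young KD mouse 2 by little (-0.79, SE 0.37; -0.97, SE 0.37; -0.82, SE 0.28). Their distance from young KD comes largely from young KD mouse 1: without it the 3 values ended between -0.34 and -0.03. Lcn2 was at 71.3 and 90.4 CPM in young KO (0.13, SE 0.13), Mmp8 at 458 and 437 CPM (0.21, SE 0.09), Cd177 at 193 and 147 CPM (0.05, SE 0.16), Hp at 1050 and 951 CPM (0.13, SE 0.11) and Olfm4 at 0.25 and 0.46 CPM (-0.33, SE 0.43). For Lcn2 the 95% interval of the log2 difference ran from -0.12 to 0.38, and for Hp from -0.08 to 0.33. Each adjusted p of the 10 members in edgeR was 1 after rounding.

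Old KO against young KO, mice of different age without disease, gave 0 members past the threshold in edgeR, where 138 of 14847 genes were called, 0.929%. At an unadjusted p under 0.05 edgeR had 3 members higher in old KO and 1 lower, against 8.86% of all genes in either direction. Lcn2 was lower in both old KO mice than in both young KO mice, 2.29-fold (log2 fold change -1.20, SE 0.25, edgeR adjusted p = 0.138), and DESeq2 called it (adjusted p = 5.49e-05). In edgeR it passed without old KO mouse 2 (-1.59, adjusted p = 0.0235). The 3 on the higher side were Mmp9 (0.70, SE 0.22), Ngp (0.54, SE 0.21) and Cd177 (0.39, SE 0.14). Chil3 (-0.29, SE 0.25), Mmp8 (-0.15, SE 0.09), Ltf (-0.23, SE 0.27), Camp (-0.14, SE 0.42), Hp (0.01, SE 0.11) and Olfm4 (1.12, SE 0.74) did not pass either. The members' median was -0.07 against -0.0006 over all genes.

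The interaction, fitted on all 8 libraries, asks whether the KO-to-KD difference of old or sick mice differs from that of young mice. It was negative past the threshold for Lcn2 (-3.29 on the log2 scale, SE 0.48, edgeR adjusted p = 0.0144) and Mmp8 (-1.10, SE 0.24, adjusted p = 0.0368), 2 of the 10 members, where 3.11% of all 15102 genes tested were called in this direction. Of the calls over all genes 58.2% were in the higher direction, and 43.0% after each library's trend in GC content, length and span was removed. Chil3 (-1.54, SE 0.39, adjusted p = 0.0527) and Hp (-0.55, SE 0.16, adjusted p = 0.0726) lay just outside, and the other 6 had adjusted p from 0.246 for Cd177 to 0.976 for Ltf. Chil3 passed without old KO mouse 2 (0.0322) or sick KD mouse 2 (0.0398), and Mmp9, at 1.39, passed without sick KD mouse 1 (2.76, 0.0179). Both calls depend on single mice. That of Lcn2 was lost without young KO mouse 2 (adjusted p = 0.0531) and without young KD mouse 1 (0.0569), and that of Mmp8 without any of the 6 old KO, young KO or young KD mice in turn (0.0637 to 0.145).

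Ratios of a pair of genes within a library do not depend on how libraries are scaled. The ratio of Lcn2 to Hp counts was 0.322 and 0.148 in sick KD and 0.0278 to 0.0951 in the other 6 libraries, and that of Chil3 to Hp was 4.71 and 3.08 in sick KD and 0.925 to 3.05 in the others. Sick KD stayed highest in both, although young KD mouse 1 came close for Chil3. The ratio of Mmp8 to Hp was 0.676 and 0.437 in sick KD, and 0.393 to 0.460 elsewhere, so sick KD mouse 2 fell among the other groups. The ratio of Cd177 to Hp was 0.274 and 0.188 in sick KD, and the latter lay below both old KO values, 0.217 and 0.226. Lcn2 and Chil3 thus changed unequally with Hp, and for Mmp8 and Cd177 only sick KD mouse 1 stood apart.

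Other genes of the neutrophil programme were counted from lists. For these and the lists further below, 8.22% of all genes tested were lower in old KO than in sick KD and 9.93% higher. In sick KD against young KD, 9.45% of all genes tested were higher and 11.4% lower. Of 26 other late granule and neutrophil maturation genes, 21 were tested in old KO against sick KD, of which 8 were lower in old KO, 1 was higher and 12 did not pass, with a median log2 fold change of -0.35. Wfdc21, a small secreted protein, was at 171 and 104 CPM in sick KD and 13.8 and 17.7 CPM in old KO (-3.14, SE 0.26, edgeR adjusted p = 0.00346). The formyl peptide receptors Fpr1 (-2.40, SE 0.39, adjusted p = 0.0108) and Fpr2 (-2.15, SE 0.22, adjusted p = 0.00438), by which neutrophils and monocytes sense bacteria, were lower as well. Retnlg, a resistin-like protein of neutrophils, went the other way, at 9.10 and 8.28 CPM in sick KD and 37.9 and 22.0 CPM in old KO (1.77, SE 0.27, adjusted p = 0.00944). In sick KD against young KD 8 of 23 tested were higher and 1 lower, with Wfdc21 at 2.01 and Retnlg at -1.06 on the log2 scale.

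Of 10 azurophil granule genes 9 were tested, and 3 were lower in old KO than in sick KD and none higher, with a median of -0.50. Ms4a3, a marker of granulocyte-monocyte precursors, was at 353 and 320 CPM in sick KD and 161 and 193 CPM in old KO (log2 fold change -0.94, SE 0.15, edgeR adjusted p = 0.00966). Serpinb1a, which inhibits the granule proteases, gave -0.93 (adjusted p = 0.00640) and Elane, neutrophil elastase, -0.69 (adjusted p = 0.0455). Mpo, myeloperoxidase, was at 2891 and 3436 CPM against 2192 and 2922 CPM and did not pass (-0.32, adjusted p = 0.272). Against young KD, sick KD had 6 of the 9 higher, with Ms4a3 at 1.02, Serpinb1a at 0.93 and Elane at 0.86 on the log2 scale.

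Of 10 granulocyte regulators, 1 was higher and 1 lower in old KO than in sick KD, against 9.93% and 8.22% of all genes tested. Gfi1 was the higher (log2 fold change 1.77, SE 0.38, edgeR adjusted p = 0.0234), and Runx1 the lower (-0.50, adjusted p = 0.0259). Since both genotypes carry an altered Gfi1 locus, counts on the mouse gene do not measure expression of intact Gfi1. Cebpe, which encodes C/EBPε, was at 16.4 and 17.8 CPM in sick KD, 23.6 and 23.8 CPM in old KO, 21.8 and 21.9 CPM in young KO and 21.2 and 19.4 CPM in young KD. It was thus lowest in the mice with the most Lcn2 and Chil3, and its difference between old KO and sick KD did not pass (0.45, SE 0.14, adjusted p = 0.0663). Of 10 inhibitors, partners and receptors of the members' proteins, 8 were tested. Cd163, the macrophage receptor for the haptoglobin and haemoglobin complex, was at 1.64 and 3.24 CPM in sick KD and 26.9 and 17.7 CPM in old KO (3.17, SE 0.37, adjusted p = 0.00512). Lrp1, a scavenger receptor that takes up lactoferrin and protease complexes, was lower in old KO (-0.77, SE 0.15, adjusted p = 0.0196). Timp1, an inhibitor of Mmp8 and Mmp9, was at 0.36 and 0.56 CPM against 0.42 and 0.10 CPM and did not pass (-0.91, SE 0.69, adjusted p = 0.386).

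Markers of other marrow cells moved between the same groups, where 9.93% of all genes tested were higher in old KO and 8.22% lower. Of 10 erythroid markers, 10 were higher in old KO than in sick KD, and their summed level was 685 and 1035 CPM in sick KD and 4879 and 3216 CPM in old KO. Macrophage markers were higher in old KO in 6 of 8 genes (summed 258 and 222 CPM against 497 and 413), and eosinophil and basophil markers in 7 of 10 (427 and 493 against 1431 and 945). B-cell markers were higher in 4 of 10, with 41.2 and 96.5 CPM against 141 and 199, and T-cell and NK-cell markers in 5 of 10, with 81.0 and 82.7 CPM against 88.6 and 111. Stromal markers were higher in 3 of 7 tested, 28.2 and 28.7 CPM against 134 and 133. No gene of these lists was lower past the threshold.

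Monocyte markers went in both directions: 2 of 10 were lower in old KO and 1 higher, against 8.22% and 9.93% of all genes tested. Fn1, fibronectin, was at 3580 and 2965 CPM in sick KD and 1567 and 1990 CPM in old KO (log2 fold change -0.90, SE 0.19, edgeR adjusted p = 0.0219), and Ms4a6c gave -0.58 (adjusted p = 0.0301). Cx3cr1, the fractalkine receptor, was at 80.1 and 103 CPM in sick KD and 218 and 202 CPM in old KO (1.18, SE 0.16, adjusted p = 0.00628). The summed monocyte level was 14562 and 13531 CPM in sick KD, 11387 and 11927 CPM in old KO, and 9007 to 11154 CPM in the young mice. None of 8 megakaryocyte and 8 stem and progenitor markers passed, with medians of 0.59 and 0.15. In sick KD against young KD, 10 of 10 erythroid, 10 of 10 B-cell, 6 of 8 macrophage, 6 of 8 stromal, 4 of 10 T-cell and NK-cell and 3 of 10 eosinophil and basophil markers were lower, and 4 of 10 monocyte markers were higher and 1 lower. B-cell markers were also lower in old KO than in young KO, both without disease, in 10 of 10 genes (median log2 fold change -2.09). In that comparison 1 of 10 T-cell and NK-cell markers was lower, and 0.929% of all genes were called. What part the cell types of all these lists had in the levels of Lcn2, Chil3 and Mmp8 was not tested.

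**Figure D4:**
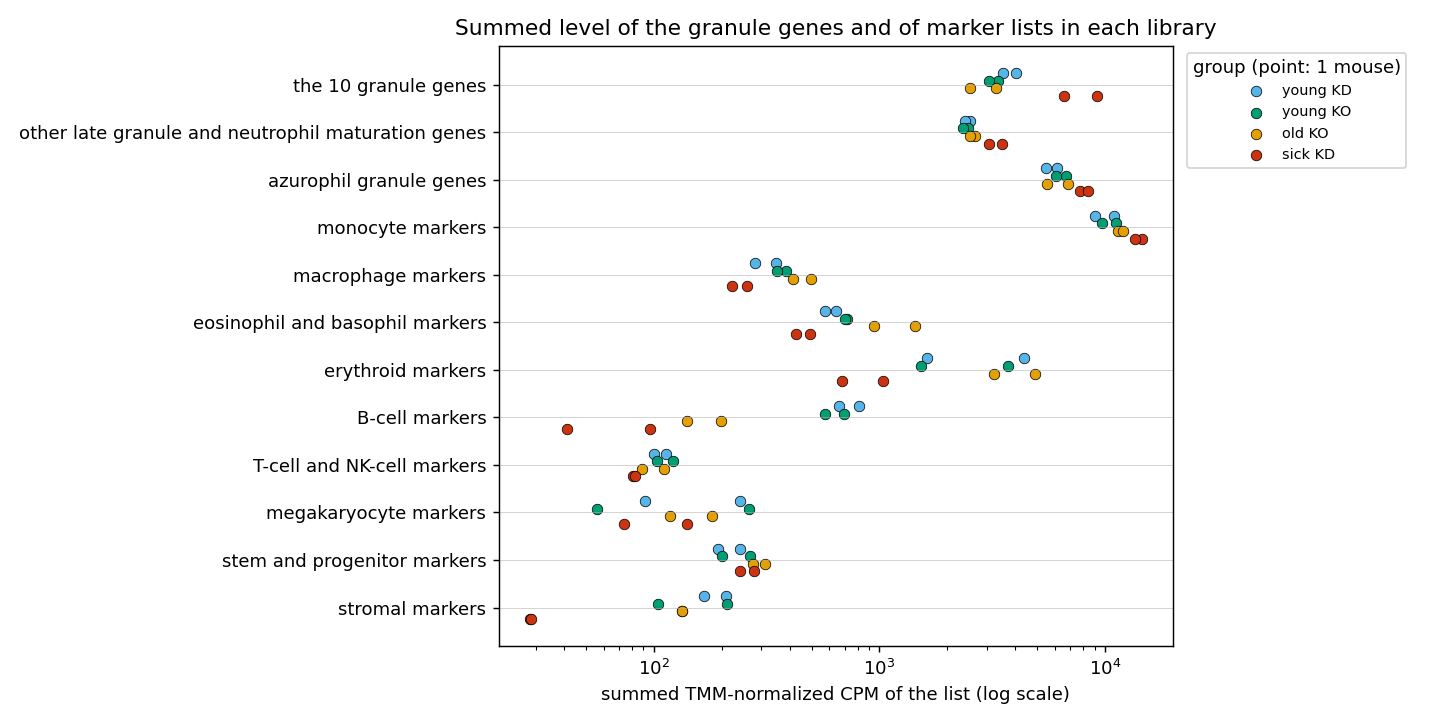
Summed TMM-normalized CPM (horizontal axis, log scale) of the 10 granule genes and of each marker list in each library; each point is 1 mouse, coloured by group. The granule genes, the azurophil genes and the monocyte markers are highest in both sick KD mice, and the erythroid, B-cell, macrophage and stromal markers are lowest there.

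By the smallest root mean square distance over the 8 libraries between a gene's centred log2(CPM + 1) and the mean of the members, the genes most like the 10 were Kat2b-ps (0.144), Gpr141b (0.154), BC022960 (0.156), Cldn12 (0.159) and 6820431F20Rik (0.162). All 5 were at low levels, with Cldn12 the highest of them in every library (9.18 and 5.50 CPM in sick KD, 3.48 and 4.34 CPM in old KO). With a pseudocount of 5 in place of 1, 0 of these 5 remained among the closest. The members themselves lay between 0.246 for Mmp8 and 0.828 for Lcn2 from their own mean, so Lcn2 departed from it the most.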

How the data were processed

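The authors extracted RNA from total bone marrow of 8 mice, made stranded poly(A) libraries (TruSeq Stranded mRNA), aligned paired reads to mm10 with TopHat 2.0.10, counted them per Ensembl gene by HTSeq and tested with DESeq. The Ensembl release and the strand setting of the counting are not given in the sources used here. The deposited values are raw counts for 41214 genes per mouse and 5 tallies of unassigned reads, which were kept out of totals and tests. Sorted-cell RNA-seq was not analysed here.

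Symbols, coordinates and exon lengths were taken from GENCODE M21 (GRCm38, the build of mm10), which named 40254 of the identifiers. The counts were tested with edgeR 4.0.16 (R 4.3.3): TMM, filterByExpr by group, the quasi-likelihood test and Benjamini-Hochberg adjustment over all genes tested, with a threshold of 0.05. Pairwise comparisons were fitted on their own 4 libraries and the interaction on 8. SEs were derived from the test's F (the size of the log2 fold change over √F). The ranges given for Lcn2 and Hp are 1.96 SE on each side. With 2 mice in each group they are narrower than 95% intervals of the quasi-likelihood test. Level profiles use a pseudocount of 1.

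Mice were grouped by the labels, and mouse numbers within a group follow the order of deposit and pair nothing. The 10 genes and the lists were chosen with earlier results of these data known. From each list the text names up to 3 genes in each direction with the largest change past the threshold in old KO against sick KD, plus Cebpe, Gfi1, Timp1, Mpo and Elane. Alternatives were DESeq2 1.42.0 (its size factors, its Wald test), scaling without the members and the 50 genes with most counts, 1 fit of all 8 libraries, no filter beyond 1 count, at least 10 counts in every library, removal of GC, length and span trends, log2 values with a pseudocount of 5, and omission of each mouse. Totals of 26642067 to 42679114 counts leave genes of few counts, such as Olfm4, imprecise. Scripts were tested on simulated data.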

Additional observations from a re-analysis of the deposited data

Results flagged for a closer look

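In 2 of the 10 genes the KO-to-KD difference of old or sick mice differed from that of young mice by the interaction test in edgeR. Both were in the lower direction, in which 3.11% of all 15102 genes tested were called. For Lcn2 the interaction was -3.29 on the log2 scale (SE 0.48, adjusted p = 0.0144): old KO was below sick KD by -3.15, and young KO differed from young KD by 0.13. Each old KO mouse lay below each sick KD mouse, while the young groups overlapped. For Mmp8 the interaction was -1.10 (SE 0.24, adjusted p = 0.0368), from -0.89 between old KO and sick KD and 0.21 between young KO and young KD. Over the 6 alternatives other than leaving out a mouse, both stayed past the threshold, with adjusted p from 1.34e-70 to 0.0155 for Lcn2 and from 1.40e-07 to 0.0394 for Mmp8. Without single mice adjusted p reached 0.0569 for Lcn2 and 0.145 for Mmp8. The groups also differ in age and disease, which cannot be told apart from the genotype here.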

How the results depend on the processing

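Under the alternatives other than leaving out a mouse, no call of a member was lost and 1 direction turned: Hp in old KO against young KO became -0.051 with GC, length and span trends removed. Calls of members were gained, and the cause was not tested. Calls over all genes rose as well in several settings. With no filter they went from 2626 to 4325 in old KO against sick KD and from 6 to 119 between young groups. They went from 138 to 796 in old KO against young KO and from 1122 to 2919 in the interaction. Over the 7 alternatives, old KO against sick KD had 2531 to 4325 calls. With DESeq2's Wald test 5 members were lower in old KO than in sick KD, 1 was lower in old KO than in young KO, and 4 had a lower interaction. With no filter beyond 1 count the old KO against sick KD counts were 6 lower and 1 higher, young KO against young KD had 3 lower, old KO against young KO had 1 higher and 1 lower, and the interaction had 5 lower and 1 higher. With the trends removed 4 had a lower interaction. Olfm4 was not tested in comparisons with the sick KD group when 10 counts were asked of every library.

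Over all genes, old KO against sick KD had 2626 calls, and 4200 in 1 fit of all 8 libraries and 4325 with no filter. Young KO against young KD had 6, and 27 with DESeq2, 3 in 1 fit and 119 with no filter. Sick KD against young KD had 3063, and 4614 with the trends removed. Old KO against young KO had 138, and 383 with DESeq2 and 796 with no filter. The interaction had 1122, and 1951 with DESeq2, 2919 with no filter and 2064 with the trends removed. No scaling moved the median of all genes by 0.1. With the trends removed, the share of calls in the higher direction went from 54.7% to 46.0% in old KO against sick KD. In sick KD against young KD it went from 45.2% to 53.8%.

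With 1 mouse left out, the lone mouse of a group is assumed to vary like the others. In old KO against sick KD, 2 to 7 members were then lower and 0 to 1 higher, while calls over all genes ran from 1221 to 2795. Log2 fold changes ran from -1.46 to 0.29 for Ltf, -1.10 to 0.59 for Ngp and -1.96 to 1.61 for Olfm4. In sick KD against young KD, 2 to 6 were higher and 0 to 1 lower, against 1316 to 3401 calls over all genes, with Camp from -0.86 to 0.82, Ngp from -0.86 to 0.83, Olfm4 from -0.80 to 2.34, Ltf from -1.29 to 0.57 and Mmp9 from -2.06 to 0.0031. The 7 lower came without sick KD mouse 2, with 2795 calls over all genes, and the 2 higher without young KD mouse 1, with 1316. In young KO against young KD, calls over all genes ran from 2 to 8, and Cd177 ran from -0.15 to 0.23, Olfm4 from -0.79 to 0.073 and Lcn2 from -0.064 to 0.30. In old KO against young KO, 0 to 1 were lower, against 17 to 307 calls over all genes, with Ltf from -0.67 to 0.11, Camp from -0.95 to 0.35, Chil3 from -0.71 to 0.042, Olfm4 from -0.17 to 1.87 and Hp from -0.051 to 0.062. In the interaction, 0 to 3 were lower and 0 to 1 higher, against 106 to 1614 calls over all genes, with Ltf from -0.80 to 1.07, Camp from -1.13 to 0.71, Olfm4 from -1.65 to 1.92 and Ngp from -0.31 to 1.40. No paired analysis was possible because the labels number the mice individually and share no number between groups.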
